A study of Mus musculus with 9 samples.

Results

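The HOX genes and the limb identity genes Pitx1, Tbx4 and Tbx5 were examined in callus, the repair tissue that bridges a broken bone, from mice with a fractured femur. The members were every gene whose symbol is Hox followed by a cluster letter from a to d and a number, which gave 39 genes, and the 3 limb genes, so 42 of the 22054 genes in the table. They were chosen by name and not by any measured value. The 9 mRNA libraries came from callus collected 7 days after surgery on male C57BL/6J mice, labelled as 7 weeks old with the tissue given as bone. The break was made by open surgery in the shaft of 1 femur and held by an intramedullary needle, and dosing started on the next day. The PBS group of 3 libraries received 200 µl of buffer. The H-151 group of 3 received the STING inhibitor H-151 at 750 nmol in 200 µl, and the SR-717 group of 3 received the STING activator SR-717 at 30 mg/kg in 200 µl, each by daily intraperitoneal injection for 1 week. STING is the adaptor protein through which cytosolic DNA, sensed by cGAS, switches on interferon and NF-κB signalling. All 3 groups were fractured, no allele was altered in any of them, and no uninjured bone or forelimb library is in this comparison. The labels call the 3 libraries of a group separate biosamples and do not say more, so the p-values measure the spread between these samples, which may be partly technical.

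HOX genes encode homeodomain transcription factors and lie in 4 clusters, in which the genes are ordered along the chromosome as their expression is ordered from head to tail of the embryo. Genes that hold the same place in different clusters form a paralog group, numbered from 1 at the anterior end to 13 at the posterior end. In the limb, group 10 genes are known for patterning the upper segment that holds the femur or humerus, group 11 genes for the middle segment and group 13 genes for the hand and foot, and adult skeletal mesenchymal cells keep a record of this position. Pitx1 and Tbx4 mark the hindlimb and Tbx5 marks the forelimb.

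The clusters were placed in the mouse genome GRCm38 with the GENCODE M21 annotation. The Hoxa cluster of 11 genes occupies chr6:52155590-52260880 on the minus strand and spans 105 kb. The Hoxb cluster of 10 genes occupies chr11:96194316-96368256 on the plus strand, the Hoxc cluster of 9 genes chr15:102921103-103036852 on the plus strand, and the Hoxd cluster of 9 genes chr2:74668310-74765142 on the plus strand. Pitx1 lies at chr13:55825051-55836192, Tbx4 at chr11:85886422-85916097 and Tbx5 at chr5:119832668-119885219.

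The homeobox, the part of the coding sequence that encodes the DNA-binding homeodomain, is shown for the genes of paralog groups 10 and 11, since group 10 held the largest share of HOX transcripts in callus and group 11 is the next in the posterior direction. Each sequence is 180 bases long, is read on the coding strand from 5′ to 3′, and lies in a single exon, exon 2 of the transcript used. Capitals mark the 18 bases that encode the tryptophan-phenylalanine-glutamine-asparagine-arginine-arginine stretch of the recognition helix.
Hoxa10, chr6:52232554-52232733, minus strand: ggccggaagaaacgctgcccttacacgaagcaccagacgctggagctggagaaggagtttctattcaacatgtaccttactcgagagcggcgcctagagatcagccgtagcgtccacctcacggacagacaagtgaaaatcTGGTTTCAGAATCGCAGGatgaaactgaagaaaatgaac
Hoxc10, chr15:102970848-102971027, plus strand: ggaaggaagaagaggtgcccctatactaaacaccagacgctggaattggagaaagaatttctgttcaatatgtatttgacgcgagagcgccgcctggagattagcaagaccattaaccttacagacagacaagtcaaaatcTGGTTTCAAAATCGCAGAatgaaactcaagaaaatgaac
Hoxd10, chr2:74694141-74694320, plus strand: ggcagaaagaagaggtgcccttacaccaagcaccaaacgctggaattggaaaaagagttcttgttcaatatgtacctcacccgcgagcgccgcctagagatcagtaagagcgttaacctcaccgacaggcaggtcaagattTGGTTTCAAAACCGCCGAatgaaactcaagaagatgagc
Hoxa11, chr6:52243402-52243581, minus strand: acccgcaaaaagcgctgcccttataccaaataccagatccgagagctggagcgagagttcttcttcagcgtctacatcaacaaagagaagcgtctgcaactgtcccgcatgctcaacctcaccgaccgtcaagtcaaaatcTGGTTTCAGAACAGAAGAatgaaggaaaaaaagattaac
Hoxc11, chr15:102956480-102956659, plus strand: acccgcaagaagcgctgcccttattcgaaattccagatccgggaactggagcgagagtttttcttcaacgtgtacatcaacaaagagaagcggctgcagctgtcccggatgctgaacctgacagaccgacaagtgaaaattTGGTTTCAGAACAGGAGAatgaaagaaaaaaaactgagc
Hoxd11, chr2:74683917-74684096, plus strand: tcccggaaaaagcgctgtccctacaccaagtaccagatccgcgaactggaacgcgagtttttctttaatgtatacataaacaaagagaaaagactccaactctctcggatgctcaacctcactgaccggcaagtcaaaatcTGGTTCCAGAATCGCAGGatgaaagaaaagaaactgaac

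A homeobox was found in all 39 HOX genes. Over the 42 pairs of genes from the same paralog group the identity of the homeobox ranged from 67.2% to 93.9%, with a median of 80.6%, and over the 699 pairs from different groups the median was 60.6%. The homeoboxes of Hoxa10 and Hoxc10 shared 80.6% of their bases and those of Hoxa11 and Hoxc11 shared 86.7%, whereas Hoxa10 and Hoxa11 shared 67.8% and Hoxc10 and Hoxc11 shared 67.2%. These neighbours in a cluster were thus less alike in this stretch than paralogs on different chromosomes. The longest run of identical bases between the homeoboxes of any pair was 52 bases, and the reads were 150 bases long and paired.

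Levels are given as TPM, the share of a library's transcripts after scaling for gene length, which can be compared between genes. A gene was counted as expressed when it had a TPM of at least 1 in all 9 libraries. By that rule 22 of the 42 members were expressed, 21 of them HOX genes, and 55% of all genes in the table met it. A further 6 members were above 1 TPM in some libraries and below it in others, 11 were below 1 TPM in all 9, and Hoxb13, Hoxd11 and Hoxd12 had no count in any library. A library with no count for a gene still allows up to 3 counts, which is 0.129 to 0.177 CPM (counts scaled to library size, not to gene length) at these depths of 16987398 to 23272480 counts, and this floor covers counting error only.

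The expressed HOX genes were spread over 11 of the 13 paralog groups and unevenly over the clusters. They made up 7 of 11 Hoxa genes, 6 of 10 Hoxb genes, 6 of 9 Hoxc genes and 2 of 9 Hoxd genes. By paralog group, 1 of 2 genes was expressed in group 2, 2 of 3 in group 3, 3 of 4 in group 4, 1 of 3 in group 5, 2 of 3 in group 6 and 2 of 2 in group 7. In group 8, 3 of 3 were expressed. In the groups that pattern the limb and the posterior body, 3 of 4 were expressed in group 9, 2 of 3 in group 10 and 1 of 3 in group 11. None of the 2 genes of group 12 or of the 4 genes of group 13 reached the threshold.

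**Figure D1:**
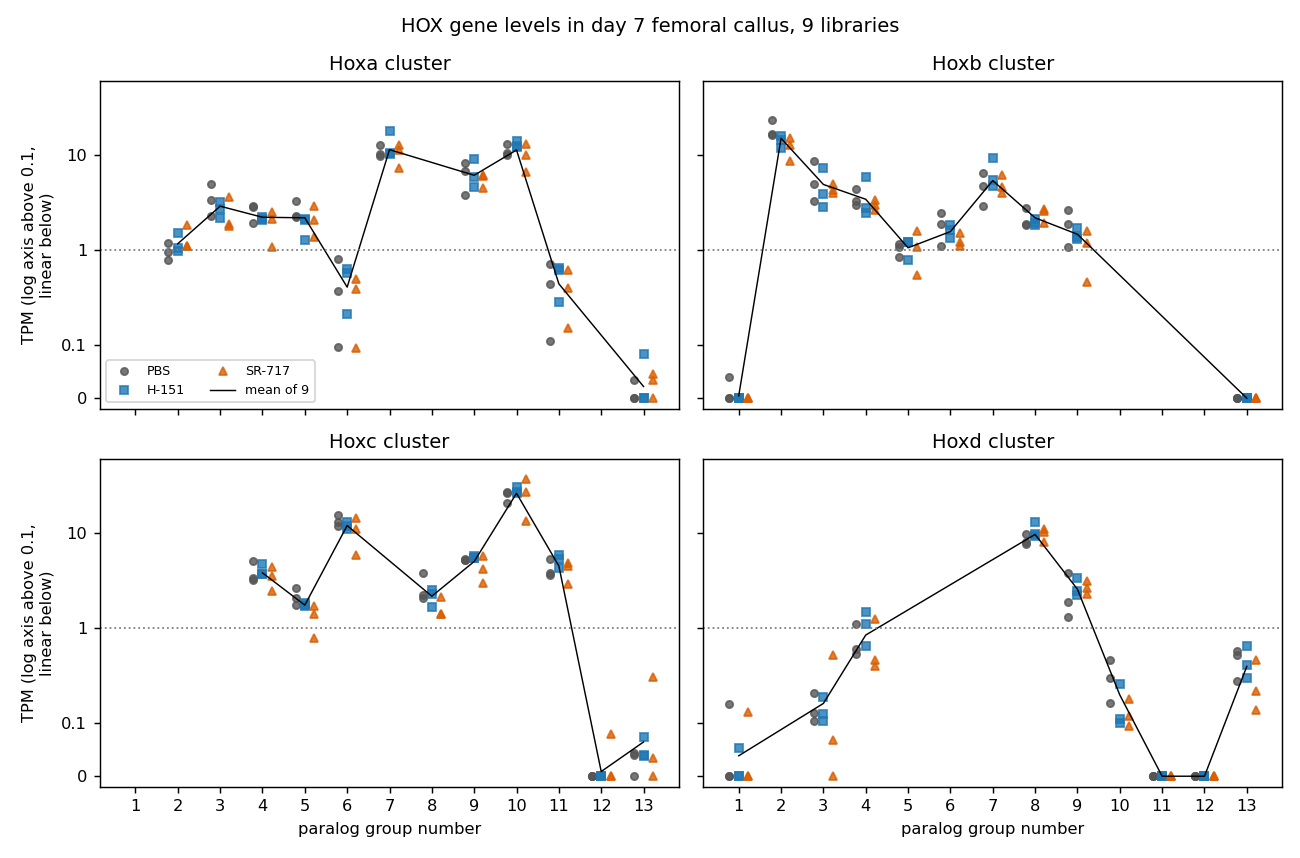
TPM of the HOX genes by paralog group number, with 1 panel per cluster and 1 gene not drawn. Points are the 9 libraries, offset and coloured by group, the line joins the means of 9 libraries, the dotted line marks 1 TPM, and the y axis is logarithmic above 0.1 and linear below. The Hoxc cluster peaks at Hoxc10 with 13.4 to 36.8 TPM, and Hoxa10 with 6.58 to 14 TPM is followed by Hoxa11 with 0.11 to 0.714 TPM.

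Hoxc10 (ENSMUSG00000022484), a gene of the hindlimb and lumbar region in the embryo, was the most abundant member. It had 26.6, 27.1 and 20.6 TPM in the PBS libraries, 26.2, 30.8 and 26.9 in the H-151 libraries and 13.4, 27.0 and 36.8 in the SR-717 libraries. It ranked highest among the 42 members in 8 of 9 libraries, and in PBS replicate 3 Hoxb2 was above it. The lowest and the highest of the 9 values were both in the SR-717 group, which therefore spanned the other groups.

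Hoxa10 (ENSMUSG00000000938), its paralog in the Hoxa cluster, had 10.1, 10.6 and 13.2 TPM with PBS, 14, 12.5 and 12.1 with H-151 and 6.58, 9.93 and 13 with SR-717. The third gene of the group, Hoxd10, had 2 to 10 counts and 0.095 to 0.463 TPM. Hoxa10 and Hoxc10 together gave 21.4% to 31.1% of the summed TPM of the 39 HOX genes, with a mean of 25.8% ± 3.48 (SD, n = 9). Group 10 was thus represented by its Hoxa and Hoxc genes, and its Hoxd gene stayed below 1 TPM in every library.

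Group 11 was represented by Hoxc11 alone. Hoxc11 had 3.83, 5.28 and 3.67 TPM with PBS, 5.38, 5.83 and 4.34 with H-151 and 2.90, 4.88 and 4.48 with SR-717. Hoxa11, a gene of the middle limb segment, had 0.11 to 0.714 TPM and 3 to 16 counts, and Hoxd11 had none. In the annotation, 35% of the exonic bases of Hoxa11 are shared with an antisense gene, Hoxa11os, and whether the counting used strand is not given in the sources used here.

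Among the group 13 genes, which pattern the hand and foot, Hoxd13 had 0.139 to 0.649 TPM and at least 4 counts in every library, Hoxa13 had at most 2 counts and Hoxb13 had none. Hoxc13, a gene also known for its role in hair, had 7 counts and 0.31 TPM in SR-717 replicate 3 and at most 2 counts in the other 8 libraries. The summed TPM of 7 hair follicle keratins and related markers was highest, at 24.1, in that same library. It was 8.19 and 1.57 in the remaining SR-717 libraries, 7.64 in the first H-151 library and 0.103 to 0.271 in the other 5 libraries. The part of hair follicle RNA in the Hoxc13 counts was not tested. In group 12, Hoxc12 had 1 count over all libraries and Hoxd12 had none.

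Group 9 genes, which act across the posterior trunk and limb, were measured in all 4 clusters. Hoxa9 had 3.85, 6.83 and 8.19 TPM with PBS, 9.05, 4.58 and 5.85 with H-151 and 4.47, 6.09 and 6.23 with SR-717. Hoxc9 was nearly level over the PBS and H-151 libraries, with 5.32, 5.24 and 5.27 TPM with PBS, 5.68, 5.44 and 5.49 with H-151 and 2.97, 4.15 and 5.74 with SR-717. SR-717 replicate 1 was the lowest for Hoxc9, and its H-151 libraries lay just above its PBS libraries in TPM but not in CPM. The share of all genes separated so in TPM was not counted. The groups overlapped for Hoxa9. Hoxd9 had 3.77, 1.89 and 1.31 TPM with PBS, 3.39, 2.45 and 2.25 with H-151 and 2.3, 2.64 and 3.17 with SR-717. Hoxb9 ranged from 0.46 to 2.67 TPM and was below 1 TPM in SR-717 replicate 1 only.

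Hoxb2 (ENSMUSG00000075588), best known for patterning the hindbrain, was the second most abundant member by its mean over the 9 libraries. It had 16.3, 16.6 and 23.2 TPM with PBS, 11.8, 14.5 and 15.8 with H-151 and 8.73, 12.8 and 15.1 with SR-717. In TPM all 6 libraries with an agent lay below the 3 PBS libraries, and in CPM this held for SR-717 but not for H-151. The share of all genes separated in TPM was not counted. In CPM 3.75% of all tested genes were separated in either direction with SR-717 against PBS. The comparisons of both agents share the PBS libraries. All other genes of groups 1 to 4 had means over the 9 libraries between 0.00444 TPM for Hoxb1 and 4.91 TPM for Hoxb3. In this anterior part of the clusters, 27.3% of the exonic bases of Hoxb2 and 52.9% of those of Hoxb3 are shared with the antisense gene Hoxb3os, and Hoxd3 and Hoxd4 share 62.3% and 52.3% of theirs with other genes on the same strand. Antisense genes also share 25.4% of the exonic bases of Hoxa3 and 16% of those of Hoxa4. Elsewhere they share 20.4% of those of Hoxa7, and Hoxc10 shares 8.7% of its own with Hoxc5 on the same strand. Hoxd3 and Hoxd4 were also the 2 members whose deposited counts were not whole numbers, so their levels of 0 to 0.528 and 0.4 to 1.5 TPM are uncertain.

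The remaining anterior genes were expressed at lower levels. Hoxa3 had 3.4, 2.3 and 4.99 TPM with PBS, 3.19, 2.2 and 2.71 with H-151 and 1.79, 3.65 and 1.89 with SR-717. Hoxa4 had 2.94, 2.85 and 1.95 TPM with PBS, 2.15, 2.23 and 2.09 with H-151 and 1.08, 2.13 and 2.53 with SR-717. These Hoxa genes of the hindbrain and neck region stayed under 5 TPM, and their groups overlapped. Hoxb3 had 4.95, 3.27 and 8.58 TPM with PBS, 3.85, 2.84 and 7.37 with H-151 and 5.01, 3.97 and 4.33 with SR-717. Hoxb4 had 4.37, 3.01 and 3.31 TPM with PBS, 2.75, 2.48 and 5.9 with H-151 and 3.02, 2.65 and 3.4 with SR-717. Hoxc4 had 3.36, 3.24 and 5.09 TPM with PBS, 4.73, 3.71 and 3.76 with H-151 and 2.47, 3.58 and 4.43 with SR-717. Hoxb3 and Hoxb4 each had 1 or 2 libraries well above the rest, PBS replicate 3 and H-151 replicate 3 for Hoxb3 and H-151 replicate 3 for Hoxb4, while Hoxc4 varied less. Hoxa2 was at 0.798 to 1.82 TPM, and Hoxb1 and Hoxd1 had at most 3 counts in a library.

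In the middle of the clusters, Hoxc6, Hoxa7 and Hoxd8 stood out. Hoxc6 had 15.4, 12.0 and 13.2 TPM with PBS, 11.9, 11.1 and 13 with H-151 and 5.94, 11.0 and 14.4 with SR-717. Hoxa7 had 10.2, 9.85 and 12.6 TPM with PBS, 10.5, 10.2 and 18.1 with H-151 and 7.29, 12.7 and 11.3 with SR-717. Hoxd8 had 9.79, 8.01 and 7.76 TPM with PBS, 13.2, 9.41 and 9.72 with H-151 and 8.06, 10.2 and 11.0 with SR-717. These 3 genes act in the trunk of the embryo, and their levels were of the order of Hoxa10. Hoxb7 had 6.41, 2.93 and 4.73 TPM with PBS, 5.46, 4.78 and 9.37 with H-151 and 4.67, 6.22 and 3.97 with SR-717. Hoxa5 had 3.31, 2.28 and 2.24 TPM with PBS, 2.09, 1.29 and 2.12 with H-151 and 1.38, 2.91 and 2.09 with SR-717. Hoxa5 is known for patterning the neck and lung, and the highest Hoxb7 value was again that of H-151 replicate 3. Hoxb6 had 1.89, 2.48 and 1.1 TPM with PBS, 1.84, 1.35 and 1.62 with H-151 and 1.21, 1.51 and 1.11 with SR-717. Hoxb8 had 1.9, 1.85 and 2.8 TPM with PBS, 1.83, 1.95 and 2.12 with H-151 and 1.91, 2.61 and 2.73 with SR-717. Hoxc8 had 3.85, 2.25 and 2.09 TPM with PBS, 2.26, 2.5 and 1.68 with H-151 and 2.12, 1.42 and 1.4 with SR-717. These 3 trunk genes ranged from 1.1 to 3.85 TPM between them, and the groups of each overlapped. Hoxb5 had 0.545 to 1.57 TPM, Hoxc5 had 0.795 to 2.67 and Hoxa6 had 0.095 to 0.802.

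The order of the HOX genes was alike in all libraries. Spearman's rho over the 39 genes was 0.953 to 0.985 between the 36 pairs of libraries, a description across genes that share their length and sequence and are not independent. The 5 highest HOX genes of each library came from only 6 genes, of which Hoxc10 and Hoxb2 were among the 5 highest in 9 of 9 libraries, Hoxa10, Hoxc6 and Hoxa7 in 8 and Hoxd8 in 3.

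Steps between neighbouring genes of a cluster were tested over the 9 libraries with a two-sided exact permutation test that flips the sign of each library's difference in log2(TPM + 0.1), and 31 steps were tested in all, 29 of them between HOX genes. The smallest p this test allows is 0.00391, which is 0.00466 after Benjamini-Hochberg adjustment. Of the 29 HOX steps, 27 reached an adjusted p under 0.05 and 24 had the same direction in all 9 libraries, 14 with the higher-numbered gene lower and 10 with it higher. Steps between 2 genes under 1 TPM in all libraries were left out, which favours large steps. Where 1 gene was expressed and the other was under 1 TPM in all libraries, direction and smallest p followed from these levels alone. That held for steps such as Hoxa10 to Hoxa11, Hoxa6 to Hoxa7, Hoxc11 to Hoxc12 and Hoxd9 to Hoxd10. It also held for any 2 genes whose ranges did not overlap, such as Hoxc9 and Hoxc10 or Hoxc10 and Hoxc11. The test asks only whether 2 genes differ in level in the same direction across libraries. The share of other gene pairs that pass it was not counted.

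Toward the posterior end of the clusters the levels fell, though not without exception. Hoxa11 was below Hoxa10 by a mean of 4.51 ± 0.59 on the log2 scale (SD, n = 9, exact permutation p = 0.00391), with Hoxa11 lower in 9 of 9 libraries. Hoxc11 was below Hoxc10 by 2.49 ± 0.26 (n = 9, exact permutation p = 0.00391), and Hoxc12, with its 1 count, was below Hoxc11 in 9 of 9. Hoxd10 was below Hoxd9 by 3.19 ± 0.72 (n = 9, exact permutation p = 0.00391). The last expressed gene was therefore Hoxa10, Hoxc11 and Hoxd9 in 3 of the clusters, and Hoxb8 in the Hoxb cluster, where Hoxb9 lay between 0.46 and 2.67 TPM and the next gene is Hoxb13. Below 1 TPM the Hoxd levels rose again, with a mean over the libraries of 0.199 for Hoxd10, 0 for Hoxd11 and Hoxd12, and 0.397 for Hoxd13. The steps past Hoxd10 were not tested.

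Other steps ran upward or were small. Hoxc10 was above Hoxc9 by 2.33 ± 0.24 (n = 9, exact permutation p = 0.00391), Hoxc6 above Hoxc5 by 2.72 ± 0.3, Hoxa7 above Hoxa6 by 4.64 ± 0.79 and Hoxd8 above Hoxd4 by 3.46 ± 0.5, each in 9 of 9 libraries and with the same p. Hoxa4 and Hoxa5 differed by a mean of 0.02 with an SD of 0.36 (n = 9, exact permutation p = 0.863), and Hoxa3 and Hoxa4 by 0.35 with an SD of 0.54 (exact permutation p = 0.0938, adjusted 0.0969). Neither pair could be put in order at this spread.

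Summed by paralog group, group 10 held the largest share of HOX TPM in each of the 9 libraries, from 21.5% in PBS replicate 3 to 31.2% in SR-717 replicate 3, with a mean of 24.4% ± 3 with PBS, 27.1% ± 3.34 with H-151 and 26.3% ± 4.77 with SR-717 (SD, n = 3 each). Group 7 followed with a mean over all libraries of 11.7% ± 2.43 and group 2 with 11.2% ± 1.91 (n = 9). Groups 9 to 13 together held 34.9% to 45.4%, with a mean of 40.3% ± 4.08, groups 5 to 8 held 34.6% ± 2.41 and groups 1 to 4 held 25.1% ± 3.4. By cluster the mean shares were 38.3% ± 3.84 for Hoxc, 27.7% ± 1.98 for Hoxa, 24.3% ± 3.39 for Hoxb and 9.73% ± 1.73 for Hoxd. The shares of the 3 groups of libraries overlapped for group 10 and for groups 9 to 13. Of the 39 comparisons of a single paralog group between 2 groups of libraries, 5 were without overlap, all of them lower with an agent than with PBS. They included paralog group 2, at 11.2% to 15.5% with PBS, 8.74% to 11% with H-151 and 10.2% to 10.6% with SR-717, and with H-151 also paralog group 5 (2.85% to 3.36% against 3.65% to 4.02%) and paralog group 6 (8.91% to 9.43% against 9.6% to 11.5%). Paralog group 2 holds only Hoxa2 and Hoxb2, with means over the 9 libraries of 1.17 and 15 TPM. Its separation thus largely restates that of Hoxb2. The shares sum to a fixed total and were not tested. With 3 against 3 libraries a full separation has a two-sided exact permutation p of 0.1, so some are expected among 39 without any difference. The comparisons of both agents with PBS also share the PBS libraries.

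**Figure D2:**
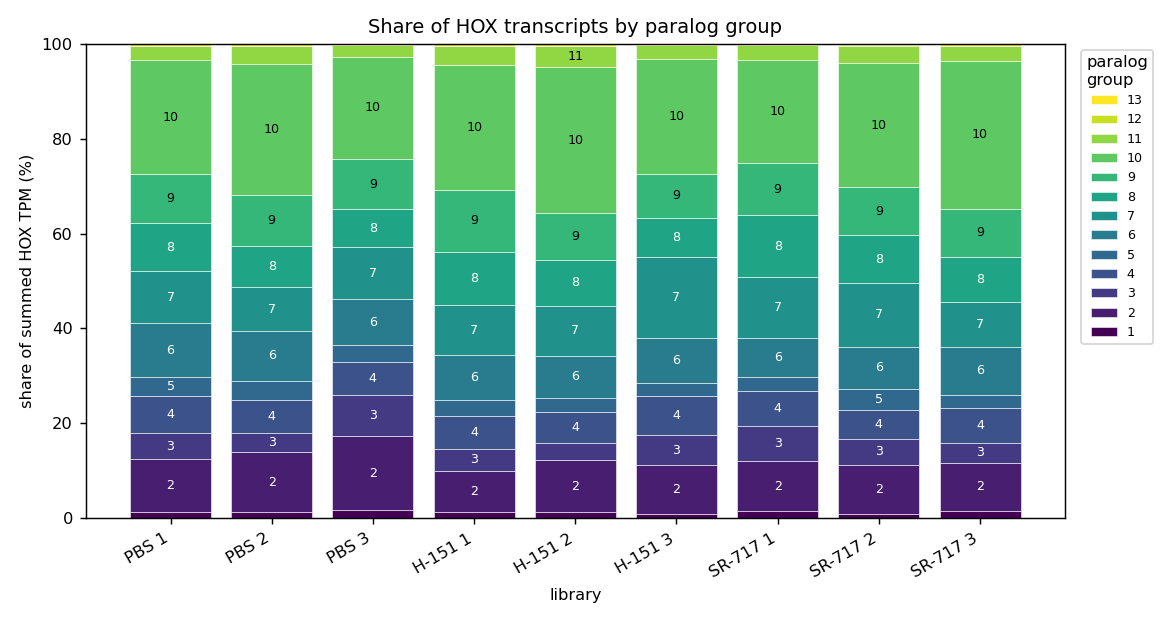
Share of the summed HOX TPM held by each paralog group, in percent on the y axis, with 1 stacked bar per library on the x axis and numbers on the segments above 4%. Group 10 is the largest segment in all 9 bars, at 21.5% to 31.2%, and groups 12 and 13 are at most 0.507%.

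Pitx1 (ENSMUSG00000021506), a hindlimb homeobox gene, was expressed in all libraries. It had 7.11, 7.61 and 6.94 TPM with PBS, 7.44, 8.32 and 6.14 with H-151 and 3.06, 5.68 and 8.75 with SR-717. The PBS libraries were close together and the SR-717 libraries held both the lowest and the highest value.

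Tbx4 (ENSMUSG00000000094), the T-box gene of the hindlimb, had 1.73, 1.70 and 0.768 TPM with PBS, 2.27, 1.5 and 1.31 with H-151 and 2.01, 1.49 and 1.71 with SR-717. Tbx5 (ENSMUSG00000018263), the T-box gene of the forelimb and heart, had 0.332, 0.277 and 0.305 TPM with PBS, 0.613, 0.617 and 0.305 with H-151 and 0.278, 0.51 and 0.575 with SR-717, on 10 to 26 counts a library. Tbx4 was above Tbx5 in 9 of 9 libraries, by 2.43-fold in H-151 replicate 2 to 7.24-fold in SR-717 replicate 1. The mean difference in log2(TPM + 0.1) was 1.71 ± 0.49 (SD, n = 9, exact permutation p = 0.00391). Pitx1 was above Tbx4 by 2.0 ± 0.66 on the same scale (n = 9, exact permutation p = 0.00391), also in 9 of 9. The hindlimb genes thus ranked above the forelimb gene in each library, and Tbx5 was detected in each. In both pairs the ranges of the genes did not overlap, so direction and p followed from the levels alone.

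**Figure D3:**
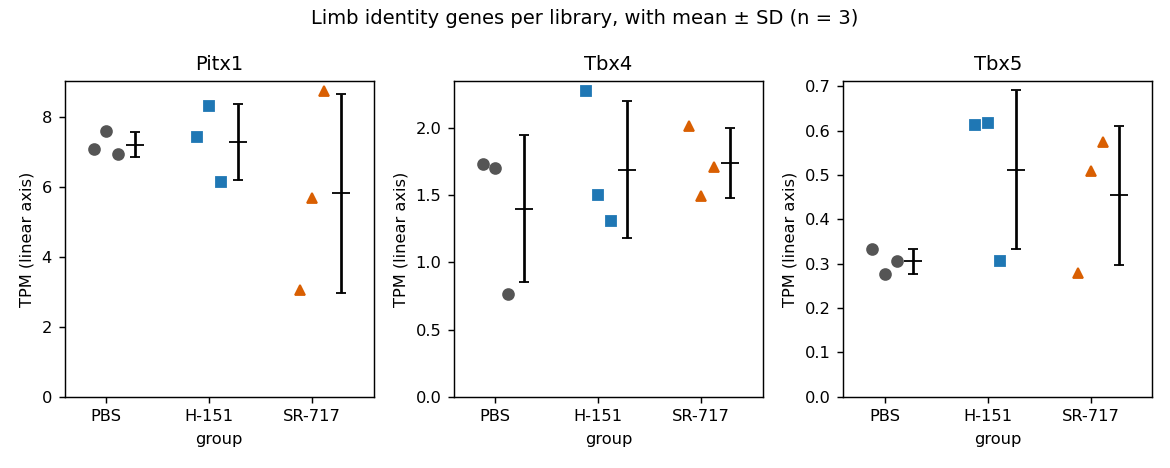
TPM of Pitx1, Tbx4 and Tbx5 on linear axes with a separate scale per gene. Points are single libraries, and the bars to their right give the mean and SD of each group of 3. Pitx1 ranges from 3.06 to 8.75 TPM, Tbx4 from 0.768 to 2.27 and Tbx5 from 0.277 to 0.617.

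SR-717 replicate 1 stood apart. The summed HOX TPM was 92.8 there and 139 to 161 in the other 8 libraries, and 11 of the 22 expressed members had their lowest TPM in it, among them Hoxa10, Hoxc10, Hoxc11 and Pitx1. The share of all genes that were lowest in it was not counted. It also stood apart beyond the members. On the main axis of variation over all genes with enough counts (46.6% of the variance) it lay at 101, against -28.8 to 38.8 for the others. In the same library the summed TPM of 8 neutrophil markers was 34935, against 1524 to 12405 in the others, the 10 mesenchymal markers summed to 18224, against 21909 to 29885, and the 8 chondrocyte markers to 202, against 920 to 8670. The 7 osteoblast markers summed to 1176 there, against 2670 to 6108, and the 7 osteoclast markers to 5185, against 6441 to 10879. The 5 adipocyte markers summed to 192, against 254 to 342, and the 6 macrophage markers to 2244, against 1014 to 1847. Skeletal muscle markers, at 9786, and erythroid markers, at 1527, lay within ranges of 5099 to 27966 and 895 to 29598 over all libraries. All listed markers of these cell types were detected in at least 1 library. These are sums of TPM, so abundant genes weigh most in them. Prrx1, one of the mesenchymal markers, was not low there, at 41.7 TPM within a range of 26.8 to 46.9 over all libraries. The other mesenchymal markers are not given singly. Per 1000 TPM of mesenchymal markers, HOX TPM was 5.09 in SR-717 replicate 1 and 4.84 to 7.37 in the others, so on that scale the library lay within their range. On the same scale 6 members, Hoxa4, Hoxa10, Hoxc6, Hoxc9, Hoxc10 and Pitx1, were still lowest in it. The part of cell make-up in these levels was not tested, and in bulk tissue fewer cells of a type and less RNA per cell cannot be told apart. The median coefficient of variation over the 9 libraries was 26.3% for the 22 expressed members and 19.9% for the 12121 genes at 1 TPM or more in all libraries. Without SR-717 replicate 1 these were 22.3% and 17.4%. The members and all genes were not matched for level, and the part of counting error in these values was not tested.

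**Figure D4:**
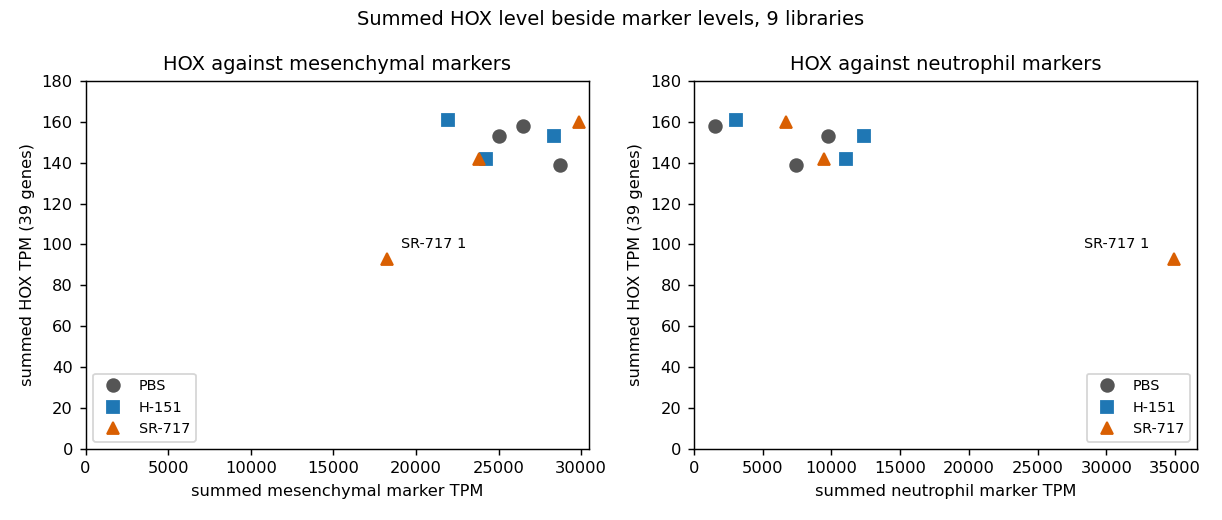
Summed TPM of the 39 HOX genes on the y axis against the summed TPM of 10 mesenchymal markers (left) and 8 neutrophil markers (right), with 1 point per library coloured by group and linear axes from 0. SR-717 replicate 1 sits apart at 92.8 HOX TPM, with the lowest mesenchymal sum of 18224 and the highest neutrophil sum of 34935.

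The highest values of the 22 expressed members were spread over several libraries. PBS replicate 3 held the most and PBS replicate 1 held 5. H-151 replicate 3 held 3, as did H-151 replicate 1 and SR-717 replicate 3. Hoxa7, Hoxb4 and Hoxb7 were highest in H-151 replicate 3, at 18.1, 5.9 and 9.37 TPM, and Hoxa3, Hoxb2, Hoxb3, Hoxb8 and Hoxc4 were among those highest in PBS replicate 3. Several of these genes, such as Hoxb4 and Hoxa7, are also known from blood progenitors. The summed TPM of 7 blood progenitor markers was 182 in H-151 replicate 3 and 180 in PBS replicate 3, within the range of 166 to 234 over all libraries. These markers are not given singly. In the same order, 6 erythroid markers summed to 7056 and 3031 TPM, within 895 to 29598 over all libraries. The 6 B lineage markers summed to 31.6 and 23.4 TPM, within 20.1 to 83.9. Other marker sums were extreme in the same libraries. The 7 osteoblast markers summed to 6108 TPM in PBS replicate 3 and 5104 in H-151 replicate 3, above the 1176 to 4600 of the other 7 libraries, and the 8 neutrophil markers to 1524 and 3066, below the 6695 to 34935 of the others. The part of cell make-up in these HOX levels was not tested.

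The question of whether the STING agents changed the members was addressed with edgeR's quasi-likelihood test on the counts of all genes. Of the 42 members 31 had enough counts to be tested in each comparison. The 11 that did not were Hoxa6, Hoxa13, Hoxb1, Hoxb13, Hoxc12, Hoxc13, Hoxd1, Hoxd3, Hoxd10, Hoxd11 and Hoxd12, so no statement on a change can be made for them.

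With SR-717 against PBS, 0 of 31 members reached a Benjamini-Hochberg adjusted p under 0.05 in edgeR and 0 reached an unadjusted p under 0.05. Over all 14070 genes tested the called shares were 0% and 0.689%, and DESeq2 called 0 genes after adjustment and 178 before. The members' log2 fold changes ran from -0.78 for Hoxb9 to 0.56 for Hoxa2, with 18 below 0 and 13 above. Their median was -0.14 against 0.01 over all genes, and 0.03 against -0.02 when SR-717 replicate 1 was left out. Leaving out PBS replicate 3 gave 0.01, with 15 below 0, and leaving out PBS replicate 2 gave -0.26, with 23 below 0. Hoxb2 was the single member whose 3 SR-717 libraries lay on one side of the 3 PBS libraries in CPM, here below them, and 3.75% of all tested genes were separated in that way in either direction. In CPM it had 13.7, 13.4 and 21 with PBS and 8.43, 11.7 and 13.1 with SR-717, a log2 fold change of -0.54 (SE 0.27, edgeR adjusted p = 1). A two-sided exact permutation test of the CPM gave p = 0.1, the smallest that 3 against 3 libraries allow. With the replicate number as a block Hoxb2 passed an unadjusted p of 0.05 but not an adjusted one (adjusted p = 0.999), and 3.8% of all genes reached an unadjusted p under 0.05 in that fit.

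With H-151 against PBS, 0 of 31 members reached an adjusted p under 0.05 in edgeR and 0 an unadjusted p under 0.05, where the shares over all 14085 genes were 0% and 0.646%, and DESeq2 called 0 genes after adjustment and 125 before. The blocked fit called 3.06% of all genes at an unadjusted p under 0.05 and none of the members. The log2 fold changes ran from -0.47 for Hoxa5 to 0.77 for Hoxd4, with 13 below 0 and 18 above, and their median was 0.08 against -0.02 over all genes. It was 0.0 without PBS replicate 2 and 0.03 without H-151 replicate 3. Tbx5 was the single member without overlap between the groups in CPM, which held for 3.86% of all genes. In CPM it had 0.695, 0.557 and 0.683 with PBS and 1.19, 1.30 and 0.733 with H-151, a log2 fold change of 0.74 (SE 0.37, edgeR adjusted p = 1, exact permutation p = 0.1). In TPM the H-151 replicate 3 value of 0.305 lay within the PBS range, so the separation held only in CPM.

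Hoxd9 rested on 1 control library in both comparisons with PBS. PBS replicate 1 had 3.77 TPM against 1.89 and 1.31 in the other PBS libraries. Without it the log2 fold change was 0.85 for SR-717 (SE 0.33, edgeR adjusted p = 0.997) and 0.77 for H-151 (SE 0.30, edgeR adjusted p = 1), and both then passed an unadjusted p of 0.05. Over all genes 0.927% and 1.53% passed it in those fits. With all libraries it was 0.32 (SE 0.42) and 0.23 (SE 0.41), and neither passed.

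With SR-717 against H-151, 0 of 31 members reached an adjusted p under 0.05 in edgeR and 0 an unadjusted p under 0.05, against 0% and 1.03% of all 14151 genes, and DESeq2 called 1 gene after adjustment, which was no member, and 281 before. The log2 fold changes ran from -0.63 for Hoxd4 to 0.27 for Hoxa5. Their median was -0.17 against 0.02 over all genes, with 23 below 0 and 8 above. Without SR-717 replicate 1 the median was 0.0 and 16 were below 0, without H-151 replicate 3 it was -0.03, and without SR-717 replicate 3 it was -0.30. Hoxa10 was the single member without overlap in CPM, which held for 5.07% of all genes, with 14, 13.5 and 16.1 CPM with H-151 and 8.09, 11.6 and 13.5 with SR-717. The nearest values of the groups were equal after rounding, and in TPM the groups overlapped. Its log2 fold change was -0.40 (SE 0.23, edgeR adjusted p = 0.996, exact permutation p = 0.1).

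**Figure D5:**
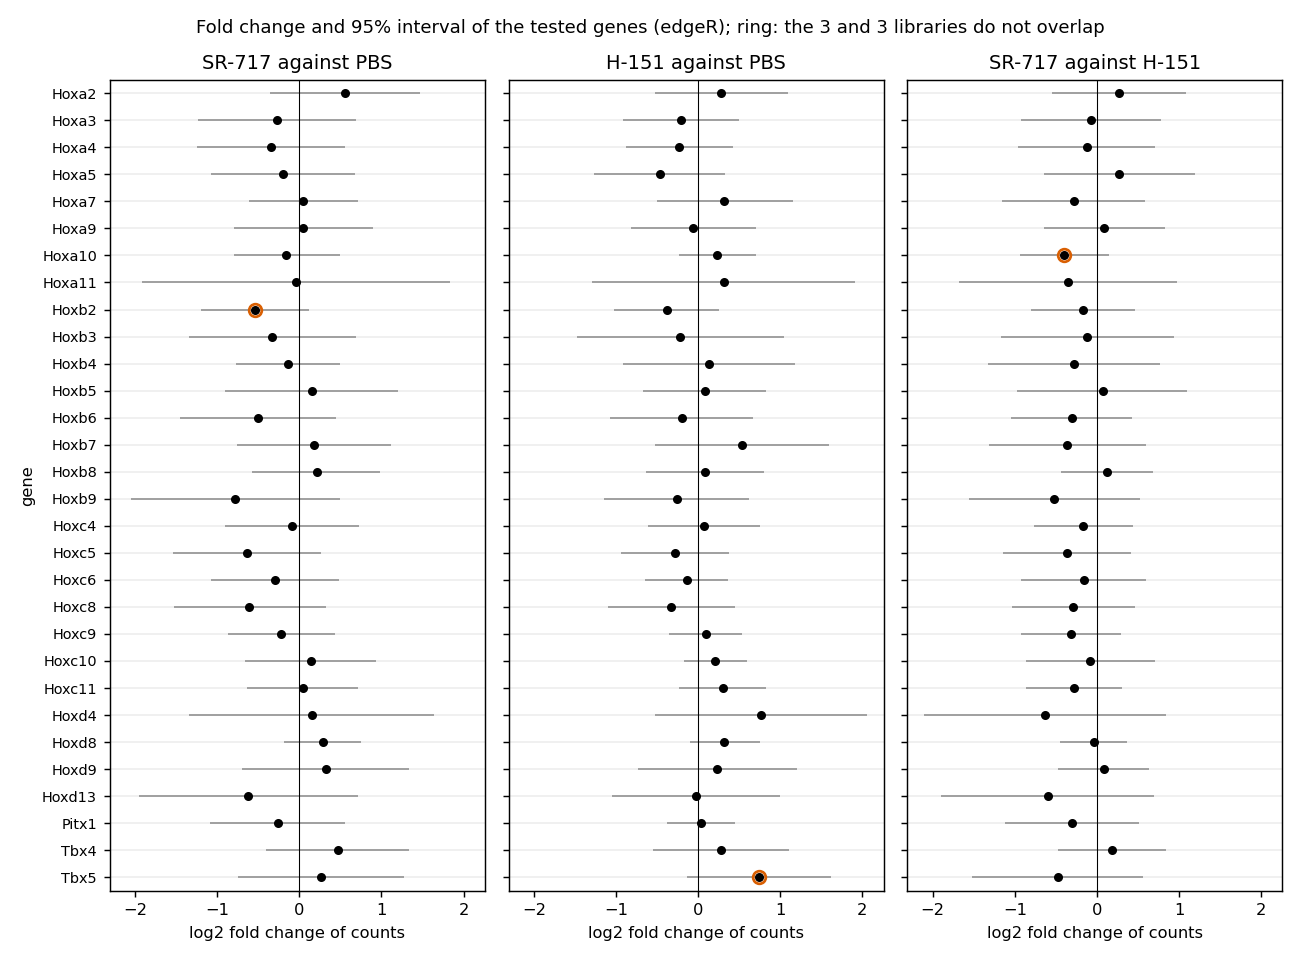
Log2 fold change of counts (x axis) of 30 of the 31 tested genes (rows) in the 3 comparisons, with points for the edgeR estimate, lines for its 95% interval and a ring where the 3 libraries of one group do not overlap the 3 of the other in CPM. All 90 intervals include 0, and the rings are Hoxb2, Tbx5 and Hoxa10.

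The intervals set how much change these libraries leave room for. For Hoxc10 the log2 fold change was 0.14 with SR-717 against PBS (95% interval -0.66 to 0.93) and 0.21 with H-151 against PBS (95% interval -0.17 to 0.59). For Pitx1 it was -0.26 (-1.09 to 0.56) and 0.03 (-0.38 to 0.45), and for Tbx4 0.47 (-0.40 to 1.33) and 0.28 (-0.55 to 1.11). The interval lay within a 2-fold change in either direction for 10 of 31 members with SR-717 against PBS, 14 with H-151 against PBS and 15 with SR-717 against H-151. The other members could have changed by more than that without being detected at this depth and number of libraries.

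Genes that act with or on the HOX genes were examined as 4 lists. The cofactors are TALE homeodomain proteins that bind DNA with HOX proteins, and 8 of 9 were expressed at 1 TPM or more in all libraries. The highest in the PBS libraries were Pbx2 at 35.8 ± 5.81 TPM, Meis3 at 25.6 ± 4.38 and Pknox1 at 10.9 ± 1.11 (SD, n = 3). None of the cofactors tested reached an unadjusted p under 0.05 in any comparison in edgeR, where 0.646% to 1.03% of all genes did.

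Of 36 limb patterning genes 20 were expressed. The highest with PBS were the limb mesenchyme homeobox genes Prrx2 at 48.3 ± 5.26 TPM and Prrx1 at 39.2 ± 10.9, the skeletal homeobox gene Dlx5 at 46.6 ± 21.9 and the T-box gene Tbx15 at 30.7 ± 1.53. Fgf8, a signal of the embryonic limb ridge, had no count in any library. All 22 Polycomb and Trithorax genes, whose products keep HOX genes silent or active, were expressed, led by Phc2 at 121 ± 24.4 TPM, Wdr5 at 39 ± 4.61, Rnf2 at 30.5 ± 28.6 and Men1 at 27.3 ± 5.34. The rank of Rnf2 rested on PBS replicate 3 with 63.4 TPM, and the mean of the other PBS libraries was 14.1 TPM, below that of Men1. None of the 23 limb genes and 22 Polycomb and Trithorax genes tested reached an unadjusted p under 0.05 in the 3 comparisons with edgeR.

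The list of 10 axial regulators held the only gene that did. Cyp26b1, which degrades retinoic acid, an inducer of HOX genes, had 7.29 ± 0.79 TPM with PBS, 5.21 ± 1.3 with H-151 and 7.16 ± 0.487 with SR-717 (SD, n = 3). Its log2 fold change was -0.49 with H-151 against PBS (SE 0.19, edgeR adjusted p = 1) and 0.55 with SR-717 against H-151 (SE 0.18, edgeR adjusted p = 0.996), and these comparisons share the H-151 libraries. Of the same list Rarg had 71.4 ± 15.4 TPM, Rara had 32.4 ± 6.97 and Gdf11 had 13.5 ± 1.07 with PBS, and Cdx2 had no count. Neither of the Cyp26b1 differences held after adjustment over all genes.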

How the data were processed

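Callus mRNA was sequenced from 3 groups of 3 libraries. The authors deposited 1 table with expected counts and TPM per gene and library. The submitters' processing notes name the build mm10, and the aligner, counter, annotation and strand setting are not given in the sources used here. The libraries were made with a dUTP strand method per the labels, whose extraction text speaks of cell lines although the tissue is given as bone.

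Deposited expected counts were rounded to whole numbers (8.91% were not whole). Groups were compared 2 at a time with edgeR 4.0.16 in R 4.3.3 (filterByExpr, TMM, glmQLFit, glmQLFTest) over all genes, with Benjamini-Hochberg adjustment. DESeq2 1.42.0, other scalings and filters, all 9 libraries in 1 fit, the replicate block and leaving out each library were alternatives. Steps between genes used TPM as deposited. A step was tested unless both genes were under 1 TPM in all libraries, a filter that favours large steps. The edgeR fit, not the step test, was tested on simulated data. Intervals use the t distribution of the edgeR fit. Positions and homeobox sequences came from GENCODE M21, which placed all 42 members. Promoters were not used here, since too few members matched the promoter table.

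Replicate numbers come from the labels. Deviations from the group means correlated between libraries of the same number by 0.65, 0.341 and 0.139 for SR-717 and PBS and by 0.305, 0.485 and 0.503 for H-151 and PBS, so blocked values are given there.

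Every member but 1, which is not reported here like 1 gene of a list, has its level given, those at 1 TPM or more in all libraries in full. Of each list up to 4 genes highest with PBS are named, and those at an adjusted p under 0.05 or at an unadjusted p under 0.05 in 2 comparisons. The members, lists and tests were chosen with earlier results of these data known. Of 21 noncoding genes of the HOX clusters, none was analysed here. Marker lists of cell types were summed in TPM.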

Additional observations from a re-analysis of the deposited data

How the results depend on the processing

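No member reached an adjusted p under 0.05 in any comparison under any of the alternatives run. At an unadjusted p under 0.05 the count with SR-717 against PBS was 0, and 1 with the replicate block (Hoxb2). Leaving out 1 library gave 0 to 1 with SR-717 against PBS and 0 to 1 with H-151 against PBS, where Hoxd9 was the member gained without PBS replicate 1. Over all genes those fits called 102 to 348 and 45 to 884 genes. With SR-717 against H-151 the deviations of libraries of the same number correlated by 0.342, 0.062 and 0.079. Libraries of different numbers were not compared, so whether the numbers pair the samples is not settled in any of the comparisons. The replicate block then called 173 genes at an unadjusted p under 0.05, against 146, and 0 members.

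At a threshold of 2 TPM in all libraries 14 members were expressed in place of 22. With a pseudocount of 1 the mean log2 ratio of Tbx4 to Tbx5 was 0.86 in place of 1.95, as the pseudocount is above every Tbx5 value.

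After seeing the data Hoxa10, Hoxc10, Pitx1 and Tbx4 were followed too. Tbx4 kept its sign in all 3 comparisons, with 0.22 to 0.64 for SR-717 against PBS. It came near 0 in the other comparisons, with 0.03 to 0.45 for H-151 against PBS and 0.02 to 0.36 for SR-717 against H-151. With a filter of a mean count of at least 50 it was not fitted for H-151 against PBS. The sign was also kept by Hoxa10 with H-151 against PBS (0.15 to 0.40) and SR-717 against H-151 (-0.56 to -0.22), Hoxc10 with H-151 against PBS (0.13 to 0.31) and Pitx1 with SR-717 against H-151 (-0.63 to -0.03). The other fold changes turned with single libraries. For SR-717 against PBS the log2 fold change ranged from -0.33 to 0.03 for Hoxa10 (above 0 without PBS replicate 3 or SR-717 replicate 1), from -0.16 to 0.42 for Hoxc10 (below 0 without SR-717 replicate 3) and from -0.60 to 0.02 for Pitx1 (above 0 without SR-717 replicate 1). For H-151 against PBS it ranged from -0.06 to 0.09 for Pitx1 (below 0 without H-151 replicate 2), and for SR-717 against H-151 from -0.37 to 0.21 for Hoxc10 (above 0 without SR-717 replicate 1). The cause was not tested. With 3 libraries a group, members with few counts leave wide intervals.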
